A study of Rattus norvegicus with 4 samples.

Results

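A set of 10 genes was followed here through an inhibition of MEK in rat tendon cells. They are the transcription factors Atf4 and Ddit3, the stress effectors Trib3, Chac1, Sesn2 and Ddit4, and the amino acid enzymes Asns, Psat1, Phgdh and Shmt2. Their rows were taken by symbol, where the gene name in the deposited table equals a listed member. The members and the gene lists below were chosen with earlier results of these data known. Their shares beside those of all genes are therefore descriptive. All 10 were found, each with 1 row, among 32623 genes in the table, and all 10 were among the 14023 genes with enough counts to be tested. The cells were TSPCs, stem or progenitor cells grown from rat tendon and fibroblast-like in nature. There were 2 libraries of cells given DMSO (control) and 2 of cells given U0126, which inhibits the MEK kinases that phosphorylate ERK. Replicates are called biological in the labels, but rat strain, animal, age, dose and exposure time are not named. A p-value here therefore reflects the spread among these 4 libraries alone, which may be technical. All n are 2 libraries per group.

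ATF4 is the transcription factor at the centre of the integrated stress response. Stress-activated kinases phosphorylate the initiation factor eIF2alpha, which slows general translation but favours translation of the Atf4 message, so the protein can change without its mRNA. ATF4 pairs with other leucine zipper factors on C/EBP-ATF response elements and induces genes that supply amino acids, load tRNAs, build serine and glycine, restrain mTORC1 and, through CHOP (the product of Ddit3), can promote cell death. Fibroblast-like cells of connective tissue draw on serine and glycine for collagen, in which glycine is the most frequent residue.

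Total counts lay between 36888913 and 42785190 per library. With U0126, 10 of 16 tested ERK output genes were lower (62.5%, against 11.5% of all genes) and 0 higher (against 8.41%) by edgeR. Also 0 of them were higher at an unadjusted edgeR p under 0.05, by DESeq2 and by limma-voom. The lower ones numbered 5 and 7 without control replicate 1 and 2. Dusp6, which encodes an ERK phosphatase, was at 37.1 and 37.3 CPM (counts scaled to library size) in the controls and 22.1 and 17.6 CPM with U0126. All 10 tested proliferation genes were also lower, with Mki67 at 62.3 ± 3.04 against 7.02 ± 2.94 CPM (mean ± SD, n = 2). The share of mitochondrially encoded genes was 3.48% and 2.98% in the controls, against 5.64% and 4.82% with U0126. Of 8 tested tendon markers 4 were called higher and 1 lower. The called marker that fell was Tnc, the matrix protein tenascin C, at 3334 ± 322 and 1144 ± 146 CPM (log2 fold change -1.54 ± 0.12 SE, edgeR adjusted p = 4.17e-04), and Fmod, the collagen-binding fibromodulin, rose from 14.3 ± 1.11 to 34.5 ± 3.50 CPM (edgeR adjusted p = 9.46e-04). The tendon factor Scx rose as well (edgeR adjusted p = 0.00559). Scx was at 12.0 ± 0.262 and 20.4 ± 0.0321 CPM, while Tnmd, a marker of mature tendon cells, averaged 0.0827 and 0.0264 CPM. Epithelial markers were at 0 counts for 4 of 4 genes in every library. Summed endothelial markers (4 genes found, Cdh5 and Cldn5 at 0 counts) lay between 0.166 and 0.782 CPM, and summed leukocyte markers (4 genes found, Ptprc at 0) between 11.2 and 13.5 CPM. Nearly all of the leukocyte sum was Cd14, at 10.7 to 12.3 CPM. Skeletal muscle markers (5 genes, Pax7 and Ckm at 0) summed to 3.91 to 4.64 CPM in the controls and 0.856 to 1.58 CPM with U0126, and both tested members were called lower. Pericyte and smooth muscle markers (5 genes) summed to 764 to 918 CPM and 480 to 645 CPM, with 3 of 4 tested called lower. Schwann markers (4 genes, Sox10 at 0) summed to 8.18 to 13.3 CPM and 26.3 to 44.3 CPM with U0126. For the 4 endothelial and leukocyte markers that could be tested the edgeR adjusted p lay between 0.235 and 0.494. The part of proliferation, mitochondrial share or these cell types in the results below was not tested. In bulk RNA, fewer cells that express a gene and less of its RNA per cell cannot be told apart.

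With U0126 the 4 stress effectors and Ddit3 rose, Phgdh fell, and Atf4 itself did not pass the test. Of the 10 genes, 5 were called higher (Ddit4, Trib3, Chac1, Sesn2 and Ddit3), 1 was called lower (Phgdh) and 4 were not called (Atf4, Asns, Psat1 and Shmt2), in edgeR's quasi-likelihood fit, with p-values adjusted by Benjamini and Hochberg's method over all genes tested. Across all tested genes 8.41% were called higher and 11.5% lower. The median log2 fold change was 0.43 over the 10 genes and 0.02 over all genes tested. The libraries of the groups did not overlap for 9 of the 10 genes, against 62.8% of all tested genes. Counts of the 10 genes lay between 969 and 25370 per library, so counting error alone was between 0.628% and 3.21% of a value.

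**Figure D1:**
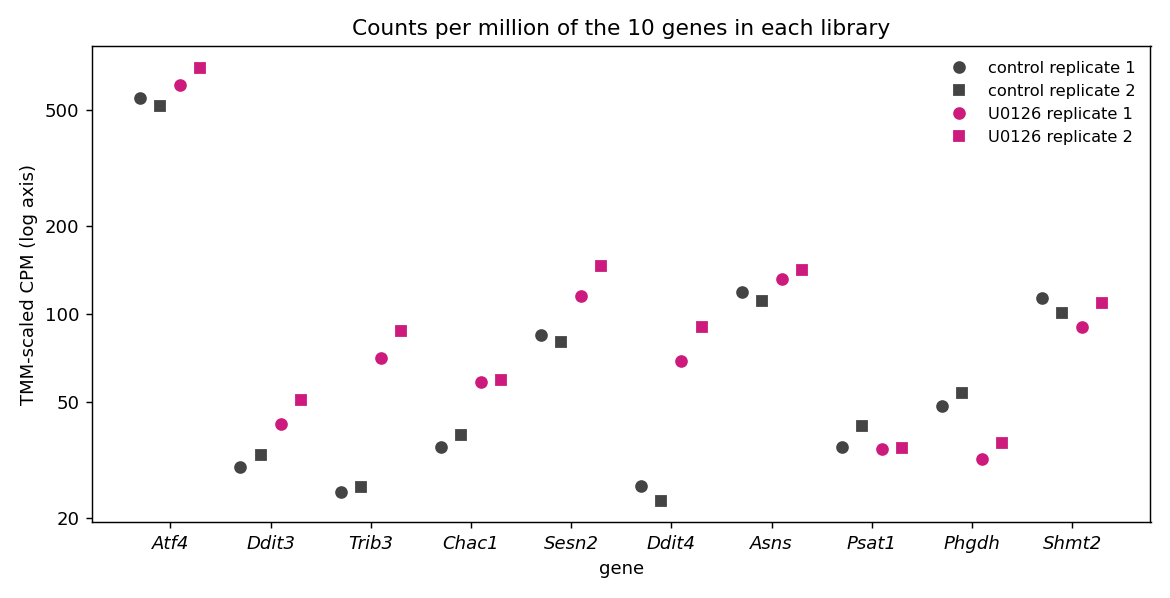
TMM-scaled CPM (log axis) of the 10 genes in each library, with controls in grey, U0126 in pink, replicate 1 as circles and replicate 2 as squares. Both U0126 libraries lie far above both controls for Trib3 and Ddit4 and below both for Phgdh, and for Shmt2 the groups overlap.

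Of the transcription factors, Ddit3 passed the test and Atf4 did not, and the difference between them was not tested. Atf4 was at 553 and 516 CPM in the controls and 609 and 701 CPM with U0126. Both U0126 libraries were above both controls, by a gap smaller than the distance between the U0126 libraries. Its 1.22-fold difference (log2 fold change 0.29 ± 0.10 SE) did not pass (edgeR adjusted p = 0.0951), with a 95% interval of 1.03-fold to 1.45-fold. Ddit3, which encodes CHOP, an ATF4-induced factor linked to cell death in prolonged stress, was at 29.8 and 32.8 CPM in the controls and 42.1 and 50.6 CPM with U0126. The groups did not overlap, and Ddit3 rose 1.48-fold (log2 fold change 0.57 ± 0.12 SE, edgeR adjusted p = 0.0198). The Ddit3 gene (chromosome 7, 70580198 to 70585084, plus strand, rn6) overlaps at its end with Mars, a tRNA synthetase gene on the other strand. The overlap runs only from 70585013 to 70585084. Since the strand setting of the counting is not given in the sources used here, reads of that overlap cannot be assigned, and Mars itself had a log2 fold change of 0.13 ± 0.09 (edgeR adjusted p = 0.352). Ddit3 did not pass once control replicate 1 or 2 was removed (edgeR adjusted p = 0.199 and 0.114, against 0.00121 at the lowest over the alternatives). Removing U0126 replicate 1 let Atf4 pass (edgeR adjusted p = 0.0154), and none of its other alternatives did so, the highest being 0.461.

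The stress effectors held the largest changes. Ddit4 encodes REDD1, a restraint on mTORC1 that is induced by several stresses. It was at 25.6 and 22.9 CPM in the controls and 69.1 and 90.2 CPM with U0126. Both U0126 libraries were thus far above both controls, and Ddit4 rose 3.29-fold (log2 fold change 1.72 ± 0.15 SE, edgeR adjusted p = 4.97e-04). A larger log2 fold change was found for 1.82% of tested genes. Trib3, a pseudokinase that binds AKT and ATF4 and is itself an ATF4 and CHOP target, was at 24.4 and 25.4 CPM in the controls and 70.7 and 87.1 CPM with U0126. It rose 3.17-fold (log2 fold change 1.66 ± 0.12 SE, edgeR adjusted p = 3.11e-04). The coefficient of variation of Trib3 was 2.70% in the controls and 14.8% in the U0126 libraries, and the groups lay far apart. Both calls held in all 11 alternatives, with the adjusted p at most 0.00872 for Ddit4 and 0.00697 for Trib3.

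Smaller rises were seen for Chac1 and Sesn2. Chac1 encodes an enzyme that degrades glutathione and is a sensitive ATF4 target. It was at 35.0 and 38.5 CPM in the controls and 58.6 and 59.3 CPM with U0126. The U0126 libraries lay close together and the gap to the controls was 5.73 times the larger within-group distance. Chac1 rose 1.61-fold (log2 fold change 0.68 ± 0.10 SE, edgeR adjusted p = 0.00379). Sesn2, a leucine-binding restraint on mTORC1 that ATF4 and p53 can induce, was at 84.7 and 80.2 CPM in the controls and 115 and 147 CPM with U0126. It rose 1.59-fold (log2 fold change 0.66 ± 0.13 SE, edgeR adjusted p = 0.0122), with the U0126 libraries further apart than the controls. With control replicate 1 removed neither Chac1 nor Sesn2 passed (edgeR adjusted p = 0.0743 and 0.0886). With control replicate 2 removed Sesn2 did not pass either (log2 fold change 0.625). Over the other alternatives the adjusted p went down to 1.38e-05 for Chac1 and 5.60e-05 for Sesn2, both by DESeq2.

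Promoter windows of the 10 genes were searched for the core of the C/EBP-ATF response element, TGATGNAA, on both strands. Windows of 300 bases, from 250 before to 50 after a gene's start, came from RefSeq (build GRCr8), and all 10 genes matched by symbol. The core was found in 2 of the 10, Trib3 and Chac1, and in 3.98% of all 33469 windows. Both genes were called higher, as were Ddit4, Ddit3 and Sesn2, whose windows held no match. Sequence outside the windows was not searched. In Chac1 the core spans 167 to 160 bases upstream of the start and in Trib3 21 to 14 bases upstream, both on the strand opposite to the gene. The upstream 250 bases of these genes are shown with the match in capitals. They are followed by those of Ddit4, the gene with the largest rise, which held no match in this window. The Chac1 stretch is chr3:126795881-126796130 (plus strand), that of Trib3 chr3:161275534-161275783 (minus strand) and that of Ddit4 chr20:28437038-28437287 (minus strand), each written 5′ to 3′ on the strand of the gene.
Chac1: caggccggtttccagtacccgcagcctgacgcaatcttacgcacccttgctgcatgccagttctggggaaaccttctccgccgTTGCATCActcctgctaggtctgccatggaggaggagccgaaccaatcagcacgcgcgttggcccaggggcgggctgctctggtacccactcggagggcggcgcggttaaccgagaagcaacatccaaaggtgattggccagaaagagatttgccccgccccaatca
Trib3: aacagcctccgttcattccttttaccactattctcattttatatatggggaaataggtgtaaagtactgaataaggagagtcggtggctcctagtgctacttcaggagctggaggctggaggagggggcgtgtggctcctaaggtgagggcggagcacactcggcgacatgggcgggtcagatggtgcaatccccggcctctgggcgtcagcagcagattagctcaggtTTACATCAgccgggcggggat
Ddit4: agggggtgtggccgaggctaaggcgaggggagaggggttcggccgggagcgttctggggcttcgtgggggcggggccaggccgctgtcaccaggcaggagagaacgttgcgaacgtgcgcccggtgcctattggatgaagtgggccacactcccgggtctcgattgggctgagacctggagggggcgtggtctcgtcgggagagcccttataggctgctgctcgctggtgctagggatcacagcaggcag

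The E-box CACGTG was found in 1 of the 10 windows, that of Atf4, and in 6.42% of all windows. The cyclic AMP response element TGACGTCA was found in 0 of the 10 and in 1.83% of all windows. In the 10 windows no match of these motifs overlapped another. The same core lay in 8 of 27 windows of other ATF4 targets and in 7 of 17 windows of cytosolic tRNA synthetases, whose transcripts are described below. A match is a run of letters in a window and says nothing of whether a factor was bound.

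Of the 4 amino acid enzymes none was called higher with all libraries, and the difference from the stress effectors was not tested. Asns, asparagine synthetase, was at 119 and 110 CPM in the controls and 132 and 142 CPM with U0126. The groups did not overlap, but the 1.20-fold difference (log2 fold change 0.26 ± 0.09 SE) did not pass (edgeR adjusted p = 0.0977). Its 95% interval was 1.03-fold to 1.39-fold. It overlaps those of Ddit3 (1.21-fold to 1.81-fold), Sesn2 (1.29-fold to 1.95-fold) and Chac1 (1.37-fold to 1.88-fold). Like Atf4, Asns passed once U0126 replicate 1 was removed (edgeR adjusted p = 0.0322). It passed in no other alternative, and the highest adjusted p was 0.529.

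Phgdh, which catalyses the first step of serine synthesis from a glycolytic intermediate, was at 48.2 and 53.6 CPM in the controls and 31.9 and 36.2 CPM with U0126. Both U0126 libraries were below both controls, and Phgdh fell 1.50-fold (log2 fold change -0.58 ± 0.11 SE, edgeR adjusted p = 0.0122). Psat1, the second enzyme of that route, was at 35.0 and 41.2 CPM in the controls and 34.4 and 34.8 CPM with U0126. The lower control lay next to the U0126 libraries, and the difference did not pass (log2 fold change -0.14 ± 0.11 SE, 95% interval 0.755-fold to 1.09-fold, edgeR adjusted p = 0.441). Shmt2, the mitochondrial enzyme that turns serine into glycine and a folate-bound carbon unit, was at 113 and 101 CPM in the controls and 89.9 and 109 CPM with U0126. These values overlap (log2 fold change -0.11 ± 0.12 SE, 95% interval 0.763-fold to 1.13-fold, edgeR adjusted p = 0.582), and without U0126 replicate 1 the sign turned, to 0.03. Phgdh did not pass with control replicate 1 or 2 removed (log2 fold change -0.66 and -0.50). Its lowest adjusted p over the alternatives was 7.71e-04, by DESeq2.

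**Figure D2:**
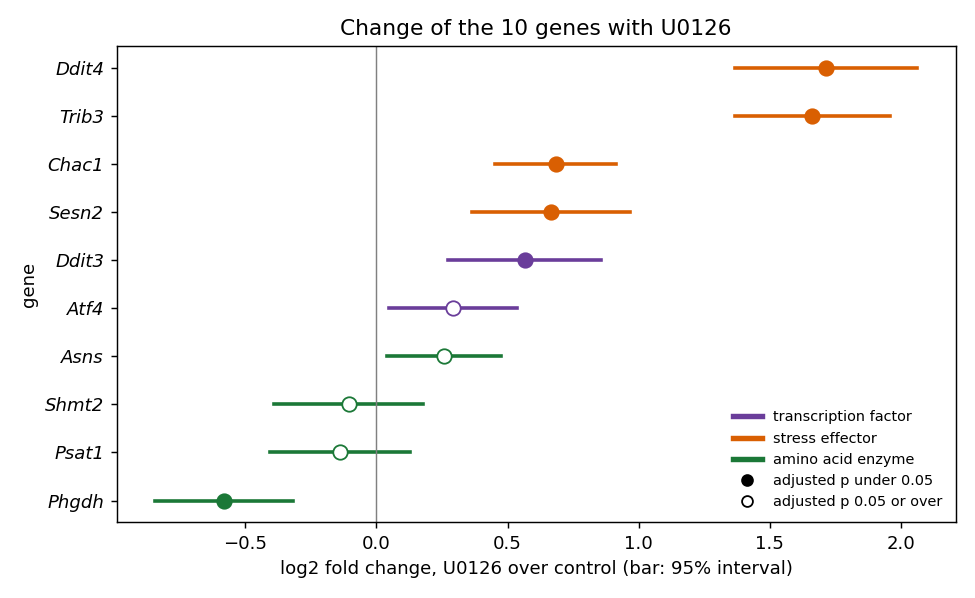
Log2 fold change of each gene, U0126 over control, with its 95% interval from the edgeR fit and colours for the gene's role. Filled points passed an adjusted p of 0.05: the stress effectors lie between 0.66 and 1.72, Ddit3 at 0.57 and Phgdh at -0.58, while the other amino acid enzymes and Atf4 are open.

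The order of the genes by level was not the same in the groups. On the deposited TPM scale, which corrects for transcript length, Atf4 was the most abundant of the 10 in both groups, at 687 ± 15.3 TPM in the controls and 808 ± 86.8 TPM with U0126. Asns followed at 100.2 ± 2.77 and 115 ± 6.57 TPM. In the controls Ddit4 (25.3 ± 1.35 TPM) and Trib3 (23.1 ± 1.22 TPM) were the lowest of the 10, below Phgdh (51.0 ± 5.20 TPM) and Psat1 (33.3 ± 4.66 TPM). With U0126 they stood at 79.7 ± 15.6 and 70.2 ± 11.0 TPM, and Phgdh (32.6 ± 3.19 TPM) and Psat1 (28.8 ± 0.820 TPM) were the lowest. In the controls only the neighbours Chac1 and Sesn2 overlapped in their libraries. With U0126 Ddit3, Shmt2, Ddit4, Trib3, Chac1 and Sesn2 formed a run between 60.3 and 89.2 TPM in which each neighbour overlapped the next. Ddit4 had the largest rise of the 10 and Phgdh the only called fall, so their ratio is the extreme of the set. Within a library, the ratio of Ddit4 to Phgdh in TPM was 0.554 and 0.445 in the controls and 2.26 and 2.60 with U0126. That ratio does not depend on how libraries are scaled against each other.

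**Figure D3:**
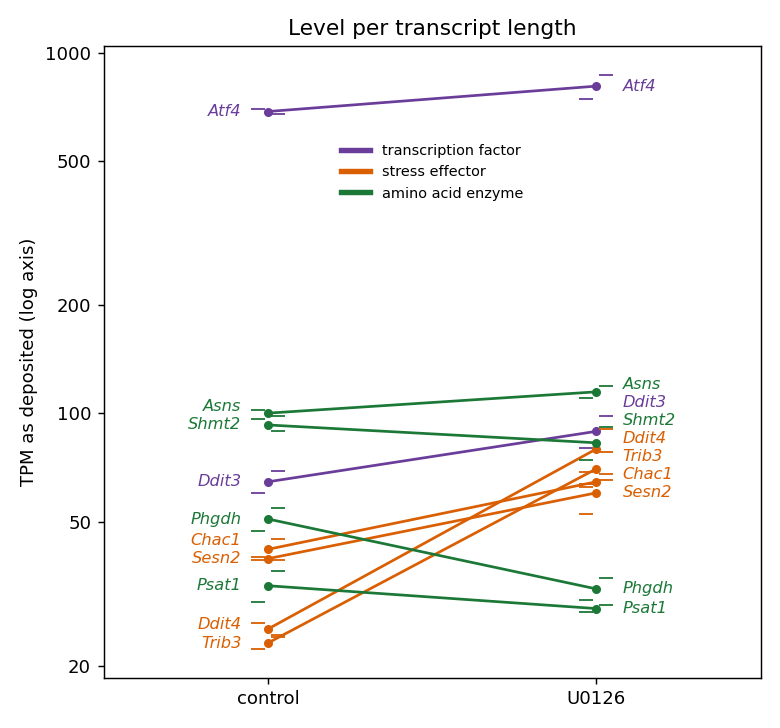
Mean deposited TPM (log axis) of the 10 genes in control and U0126 libraries, with a dash for each library and names moved apart where they would collide. Ddit4 and Trib3 go from the lowest levels (25.3 and 23.1 TPM) to above Phgdh and Psat1, which end lowest at 32.6 and 28.8 TPM.

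The U0126 libraries differed from each other in most of the set. In scaled CPM all 10 genes were higher in U0126 replicate 2 than in replicate 1, by a median ratio of 1.18, whereas 49.1% of all tested genes were. The ratio ran from 1.01 for Psat1 and Chac1, a difference within counting error, to 1.28 for Sesn2 and 1.31 for Ddit4. It was 1.13 for Phgdh, so genes called in either direction shared it. In the controls 5 of the 10 were higher in replicate 2 (48.9% of all tested genes). Leaving out U0126 replicate 2 lowered the log2 fold change of Ddit4 from 1.72 to 1.50 and of Sesn2 from 0.66 to 0.47, and both were still called. Leaving out U0126 replicate 1 raised the log2 fold change of Atf4 from 0.29 to 0.39 and of Asns from 0.26 to 0.31. In that fit called rises over all tested genes also increased. Its spread came from the controls alone, which differed less from each other than the U0126 libraries did. Without control replicate 1 or 2 fewer of the 10 genes were called in either direction. In those fits 1 control stands alone and is assumed to vary like the other group.

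**Figure D4:**
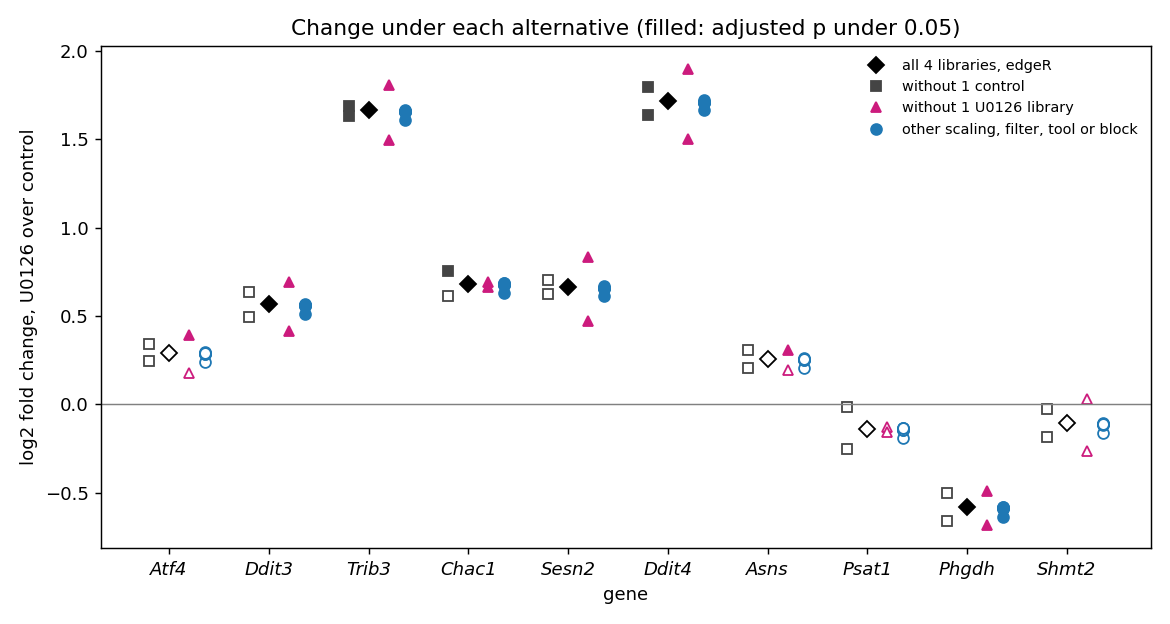
Log2 fold change of the 10 genes with all 4 libraries and under each alternative, filled where the adjusted p was under 0.05. Ddit4 and Trib3 are filled throughout, between 1.49 and 1.90, and for Ddit3, Chac1, Sesn2 and Phgdh an open square marks a call lost without a control.

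Relatives of some of the 10 genes were also measured. Ddit4l, a paralog of Ddit4 at low level, rose from 0.521 ± 0.238 to 2.31 ± 0.172 CPM (4.38-fold, edgeR adjusted p = 0.0115). Sesn3, a sestrin that FOXO factors induce, rose 1.47-fold (27.2 ± 0.542 to 40.0 ± 8.49 CPM, edgeR adjusted p = 0.0427), while Sesn1, a p53-induced sestrin, was at 10.2 ± 2.09 and 9.70 ± 0.901 CPM (edgeR adjusted p = 0.826). Trib2 fell 1.78-fold (55.8 ± 0.104 to 31.4 ± 0.757 CPM, edgeR adjusted p = 0.00146), opposite to Trib3, and Trib1 did not pass (log2 fold change -0.44 ± 0.19, edgeR adjusted p = 0.156). Chac2, the constitutive relative of Chac1, was at 6.68 ± 0.507 and 8.17 ± 0.0358 CPM (edgeR adjusted p = 0.242). Sesn3 did not pass in 5 of 11 alternatives, such as scaling by totals only (edgeR adjusted p = 0.0581; range 4.58e-04 to 0.244), and Ddit4l did not pass with control replicate 1 removed (0.0897).

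Upstream of ATF4 stand the kinases, phosphatase subunits and guanine nucleotide exchange factor of eIF2. Of 16 tested genes, 1 rose (6.25%, against 8.41% of all genes) and 1 fell (6.25%, against 11.5%), shares near the background, with a median log2 fold change of 0.05. The riser was Eif2ak3, which encodes the endoplasmic reticulum kinase PERK (37.7 ± 2.38 to 51.2 ± 0.125 CPM, 1.36-fold, edgeR adjusted p = 0.0203). Eif2b2, a subunit of the exchange factor, fell 1.34-fold (edgeR adjusted p = 0.0215). Eif2ak4, which encodes the amino acid sensor GCN2, was at 23.1 and 24.4 CPM in the group means (log2 fold change 0.08 ± 0.12). Ppp1r15a, the stress-induced phosphatase subunit GADD34 and a classical ATF4 target, was at 81.6 and 80.7 CPM in the controls and 66.4 and 98.5 CPM with U0126, so that the U0126 libraries lay on both sides of the controls. Neither Eif2ak3 nor Eif2b2 passed when a control was removed (edgeR adjusted p = 0.136 to 0.245). Without U0126 replicate 1 or 2 the list had more risers, in fits that also called more of all tested genes.

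Among 11 tested leucine zipper partners of ATF4, 2 rose (18.2%, against 8.41% of all genes) and 0 fell (against 11.5%). At an unadjusted edgeR p under 0.05, 2 were lower, and 0 were called lower by DESeq2 and limma-voom. Jdp2, an AP-1 family repressor, rose 1.62-fold (37.5 ± 0.697 to 60.6 ± 1.11 CPM, edgeR adjusted p = 0.00275). Atf5, like Atf4 controlled at translation, rose 1.31-fold (413 ± 3.53 to 543 ± 46.4 CPM, edgeR adjusted p = 0.0302). Atf3, an early stress factor induced by ATF4 and also by ERK signalling, was at 5.17 and 5.45 CPM in the controls and 1.90 and 3.87 CPM with U0126 (edgeR adjusted p = 0.104). Cebpb overlapped between the groups (edgeR adjusted p = 0.545), and Cebpg had a log2 fold change of 0.21 ± 0.09 (edgeR adjusted p = 0.158). With either control removed 0 partners were called higher, Jdp2 and Atf5 included (edgeR adjusted p = 0.0505 to 0.229). With U0126 replicate 2 removed, Atf3 was called lower (0.00139).

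Other amino acid and stress targets of ATF4 went both ways. Of 29 tested, 6 rose (20.7%, against 8.41% of all genes) and 3 fell (10.3%, against 11.5%), with a median log2 fold change of 0.15. Slc7a3, a transporter of cationic amino acids, rose 4.32-fold from a low level (0.835 ± 0.183 to 3.63 ± 0.0903 CPM, edgeR adjusted p = 0.00315). Atf5 and Jdp2 belong to this list too, and Nupr1, Vldlr and Gpnmb, named after their values were seen, rose 1.31-fold, 1.26-fold and 1.85-fold. Ndrg1, a gene that also answers to hypoxia, fell 2.21-fold (68.5 ± 3.40 to 31.0 ± 0.599 CPM, edgeR adjusted p = 4.68e-04), as did Slc43a1 and Got1, named after their values were seen. Slc7a11, the cystine transporter gene, did not pass (edgeR adjusted p = 0.885), with 4.64 ± 0.528 and 4.48 ± 0.110 CPM. Fewer rose and fewer fell without either control, while more rose without U0126 replicate 1 and more fell without U0126 replicate 2. The numbers called over all tested genes moved in the same ways.

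The enzymes around Phgdh, Psat1 and Shmt2 changed in part. Of 23 tested genes of serine, glycine and folate metabolism, 4 fell (17.4%, against 11.5% of all genes) and 0 rose (against 8.41%). At an unadjusted edgeR p under 0.05, 1 was higher, and 0 were called higher by DESeq2 and limma-voom. The median log2 fold change of the list was -0.06. Shmt1, the cytosolic counterpart of Shmt2, fell 1.64-fold (20.5 ± 0.641 to 12.5 ± 0.449 CPM, edgeR adjusted p = 0.00778). Mthfd1l, a mitochondrial formate-producing enzyme, fell 2.11-fold (30.5 ± 0.0348 to 14.5 ± 1.70 CPM, edgeR adjusted p = 0.00179). Tyms, the thymidylate synthase of dividing cells, fell 2.32-fold, beside the fall of all 10 proliferation genes. Mthfd2, the mitochondrial enzyme that ATF4 induces, was at 94.4 ± 3.01 and 97.2 ± 11.9 CPM (edgeR adjusted p = 0.821). Psph, the last enzyme of serine synthesis, was at 25.2 ± 1.84 and 22.9 ± 2.80 CPM (0.514), and Aldh1l2 at 65.4 ± 6.68 and 71.9 ± 13.8 CPM (0.562). With control replicate 1 or 2 removed the fallers were 2 and 3. Shmt1 then passed in neither fit (edgeR adjusted p = 0.0779 and 0.111), and Tyms not with control replicate 1 removed (0.0556).

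No cytosolic tRNA synthetase was called by edgeR among 20 tested, against 8.41% of all genes called higher and 11.5% lower. At an unadjusted edgeR p under 0.05, 2 were higher and 0 lower. DESeq2 and limma-voom each called 1 higher (Eprs) and 0 lower. Their log2 fold changes lay between -0.23 and 0.29, with a median of 0.02. The most abundant, Eprs, was at 223 and 238 CPM in the controls and 285 and 280 CPM with U0126 (log2 fold change 0.29 ± 0.09, edgeR adjusted p = 0.0585). These enzymes charge tRNAs with amino acids, and many are ATF4 targets. Without U0126 replicate 2 some were called in each direction, in a fit that also called more of all tested genes.

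Of 21 tested genes of the IRE1 and ATF6 arms, the other branches of the unfolded protein response, 8 fell (38.1%, against 11.5% of all genes), 1 rose (4.76%, against 8.41%) and 12 were not called, with a median log2 fold change of -0.26. Sdf2l1, a chaperone cofactor, fell 1.93-fold (45.4 ± 3.94 to 23.5 ± 2.02 CPM, edgeR adjusted p = 0.00220), and Calr, the lectin chaperone calreticulin, 1.49-fold (1418 ± 59.1 to 952 ± 2.65 CPM, edgeR adjusted p = 0.00502). The riser was Herpud1, a degradation factor that ATF4 can also induce (119 ± 1.74 to 196 ± 4.52 CPM, 1.65-fold, edgeR adjusted p = 0.00179). Hspa5, which encodes the chaperone BiP, was at 880 ± 60.6 and 840 ± 46.0 CPM (edgeR adjusted p = 0.676), and Xbp1 at 130 ± 2.85 and 112 ± 6.70 CPM (0.135). As over all tested genes, fewer fell without control replicate 1 or 2 and more without U0126 replicate 2. Calr did not pass with control replicate 1 removed.

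Sesn2 and Ddit4 act on mTORC1. Of 24 tested genes of that complex and its nutrient regulators, 3 rose (12.5%, against 8.41% of all genes) and 0 fell (against 11.5%). At an unadjusted edgeR p under 0.05, 1 was lower, and 0 were called lower by DESeq2 and limma-voom. The risers were Ddit4l and Sesn3, given above, and Castor1 (listed as Gatsl3), an arginine sensor, at 19.9 ± 1.26 and 27.4 ± 3.56 CPM (edgeR adjusted p = 0.0493). Castor1 did not pass in 7 of 11 alternatives (range of edgeR, DESeq2 or limma adjusted p 0.00470 to 0.343). With library totals alone or without a low-count filter 1 member rose, and without control replicate 1 or 2 the risers were 0 and 1. Without U0126 replicate 2 more rose and some fell, in a fit that also called more of all tested genes.

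**Figure D5:**
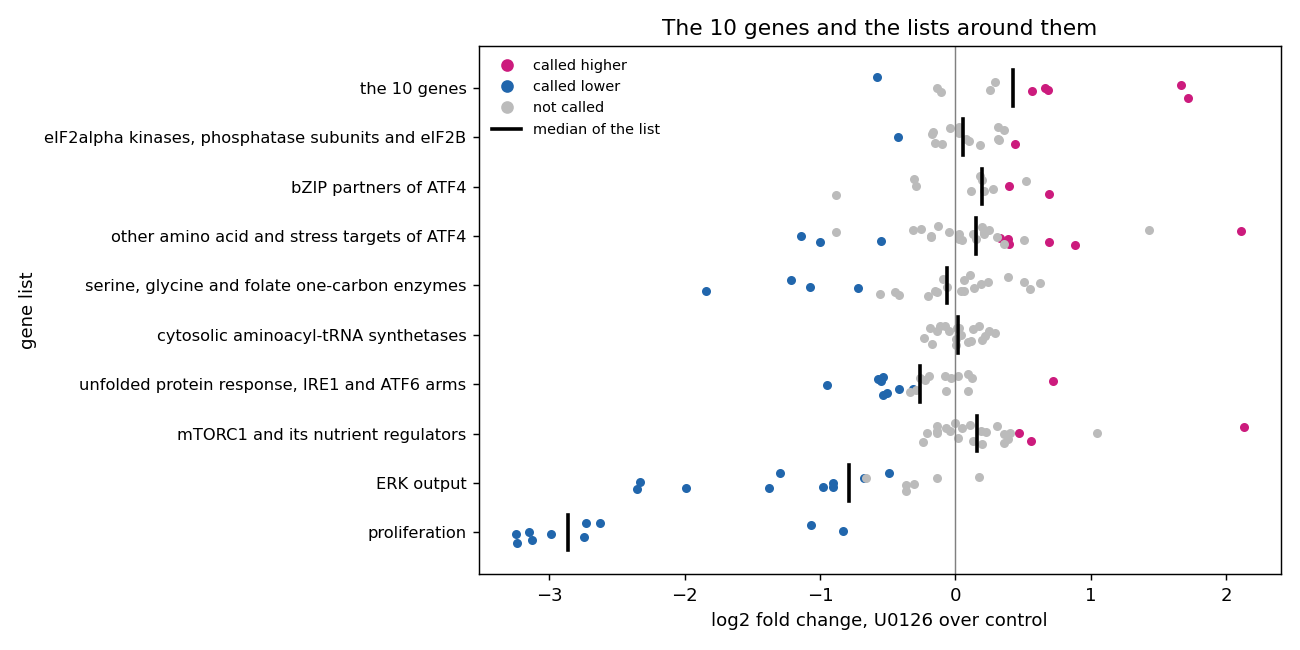
Log2 fold change, U0126 over control, of every tested gene in the 10-gene set and in the 9 lists around it, coloured by call, with a bar at each list's median. The medians run from 0.43 for the 10 genes through 0.02 for the tRNA synthetases to -2.86 for the proliferation genes.

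The positions of the 10 genes are on the rn6 build as deposited. Ddit4 lies on chromosome 20 (29509289 to 29511382), Trib3 on chromosome 3 (147813473 to 147819571) and Chac1 on the same chromosome (111160205 to 111163425). Phgdh lies on chromosome 2 (200484246 to 200513564), and Sesn2 on chromosome 5 (150684133 to 150704117). Atf4 lies on chromosome 7 (121480723 to 121482772), Asns on chromosome 4 (33743364 to 33761163) and Psat1 on chromosome 1 (233124092 to 233145941). Ddit3 and Shmt2 (chromosome 7, 70824715 to 70829815) are 240 kb apart on opposite strands, and differed in call, with Ddit3 higher and Shmt2 not called.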

How the data were processed

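The authors deposited 1 table of Ensembl genes. Each library has columns of raw counts, TPM and FPKM, per the file headers. The deposited counts are whole numbers, not normalized. The deposited TPM values (scaled by length and to a fixed total) were used only to compare levels between genes, and the deposited FPKM values were not used. Per the submitters' processing notes the build is rn6. Aligner, counter and strand setting: not given in the sources used here. A column's letter and number gave its sample, as in the sample descriptions.

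Genes were kept by filterByExpr (minimum count 10, minimum total 15), libraries scaled by TMM, and groups compared with edgeR 4.0.16 (glmQLFit, glmQLFTest, two-sided; R 4.3.3) with Benjamini-Hochberg adjustment and a threshold of 0.05. Standard errors are the absolute log2 fold change over the square root of F, and 95% intervals use the t distribution of the fit. DESeq2 1.42.0, limma-voom (limma 3.58.1), RLE factors, library totals, other filters, a replicate block and leaving out each library were alternatives. Replicates differed by more than counting error. The fit was tested on simulated data. Members and lists were chosen with earlier results of these data known. Named genes were the 10 members, up to 3 called genes per list with the smallest adjusted p (else the most abundant), and 23 relatives and reference genes; others are marked. Some list genes are not reported here.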

Additional observations from a re-analysis of the deposited data

How the results depend on the processing

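Over 11 alternatives, 101 of 110 values for the 10 genes kept their side of the threshold, 7 lost a call and 2 gained one; 0 called values reversed. The calls lost were all in fits without a control. The scaling that shifted all genes most, library totals alone, did so by a median log2 of -0.0538. The count of all called genes, 2792, lay between 899 and 4644 when a library was left out (higher calls 295 to 2138, lower calls 604 to 2506), and the members called lay between 2 and 7 higher and between 0 and 1 lower. Ppp1r15a, at 0.02 with all libraries, was at -0.30 without U0126 replicate 2 (edgeR adjusted p = 0.0287) and 0.28 without U0126 replicate 1; the cause was not tested. Same-numbered libraries did not deviate together (correlation -0.03 over genes), so the number is not taken as a pairing; with it as a replicate block 2371 genes were called, with 5 members higher and 1 lower. With 2 libraries per group, the differences of Atf4 and Asns did not pass the threshold, and their intervals reach up to 1.45-fold and 1.39-fold.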
